A study of Rattus norvegicus with 4 samples.

Results

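The 74 genes described here carry names of proteins of the mitochondrial ribosome in the rat. Of these 47 encode parts of the large subunit and 26 parts of the small one, while Mrps36 bears the name but is not a ribosome subunit. They were chosen by name and depth: the symbol had to be Mrpl or Mrps followed by a number and at most 1 lower-case letter, and the 4 libraries together had to hold at least 40 counts. Of 34034 listed genes 76 had such a symbol, and 12228 genes of any name had at least 40 counts. Mrpl53, with 0 counts in every library, and Mrps21l, with 5 counts in all, fell short of the count threshold. The members nearest above it were Mrpl40 with 51 counts and Mrpl38 with 119. Mrpl9, Mrpl11 and Mrpl24 are spelled in lower case in the deposited table and stand outside the rule, so their values are given separately.

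Mesenchymal stem cells from rat femurs were grown under osteogenic induction, and RNA was taken on day 1 after 24 h of treatment. The libraries were senescent cells given trichostatin A (TSA), which inhibits histone deacetylases, plus phenamil, an amiloride derivative, senescent cells with TSA alone, senescent cells with vehicle (senescent control) and young cells with vehicle (young control), 1 library of each and all of 1 batch per the labels. No library held phenamil alone, and the design text names benzyl ether where the sample labels name phenamil. The titles of the treated samples read "TSA extracs treat" and "TSA and phenamil extracs treat", and the labels do not explain "extracs". The sources used here do not give rat strain, age and sex, the doses, how senescence was reached or how many animals gave cells.

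The libraries held 9873894 to 11024227 counts and came from a 3' tag kit, which reads the ends of polyadenylated transcripts. Stromal genes, 10 in all, summed to 41609, 32506, 36472 and 38043 CPM (counts scaled to a common library size). The libraries in that order were TSA + phenamil, TSA, senescent control and young control. Most of each sum came from Col1a1, with 33592, 26746, 29856 and 30383 CPM in the same order. Levels within the list ranged widely, and Nt5e had 10.1 to 16.5 CPM and Eng 1.62 to 2.19 CPM. Of 9 blood cell markers, Cd14 alone had more than 14 counts in all, Itgam, Adgre1 and Cd79a had 0 in every library, and the list summed to 5.13 to 9.40 CPM. Of 6 endothelial markers none had more than 4 counts, and Pecam1, Vwf and Cldn5 had 0. Of 6 epithelial markers Krt8 alone had more than 5 counts, and Krt14 had 0. Adipocyte markers summed to less than 0.5 CPM in each library. Of 5 osteoblast markers Sp7 and Ibsp were at 0 counts throughout, which allows up to 0.270 to 0.303 CPM, and Bglap had 0 to 2 counts. Runx2 had 171 to 297 counts and Alpl 158 to 227, and the list summed to 33.2 to 45.3 CPM. In bulk RNA, fewer cells of a type and less RNA per cell cannot be told apart.

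Mitochondria carry their own ribosome, which makes the few respiratory chain proteins encoded by mitochondrial DNA. Its ribosomal RNA comes from the mitochondrial genome, whereas all of its proteins are encoded in the nucleus, made in the cytosol and imported. A large subunit forms peptide bonds and a small subunit reads the messenger RNA. About as many of the proteins have bacterial counterparts as were added in the mitochondrial lineage, and inherited defects of several cause failure of heart, brain or liver in humans.

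All 4 libraries contained transcripts of each of the 74 members. The members took 0.407% (0.403 to 0.411) of the counts in the TSA + phenamil library, 0.460% (0.456 to 0.465) with TSA alone, 0.419% (0.415 to 0.423) in the senescent control and 0.390% (0.387 to 0.394) in the young control, with 95% exact binomial intervals. As scaled levels these sums were 4157, 4595, 4191 and 3828 CPM in the same order. The young control was lowest and the TSA library highest, while the TSA + phenamil library and the senescent control lay close together between them. Intervals here and below cover counting error only, because reads lacking molecular identifiers are no count of molecules and each condition had 1 library. No test between conditions could be made, so every comparison is one of single libraries.

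The pattern of the sum was also that of many single members. Of the 74 members 10 were highest in the TSA + phenamil library, 47 with TSA alone, 13 in the senescent control and 4 in the young control. Of the 12228 genes compared, 23.0%, 28.5%, 21.5% and 27.0% were highest in those libraries. The lowest library was that with both compounds for 17 members, that with TSA alone for 5, the senescent control for 12 and the young control for 40. The same libraries were lowest for 22.5%, 28.0%, 20.8% and 28.7% of all genes. In 24 members all 4 libraries lay within 1.2-fold, as they did in 25.4% of all genes.

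**Figure D1:**
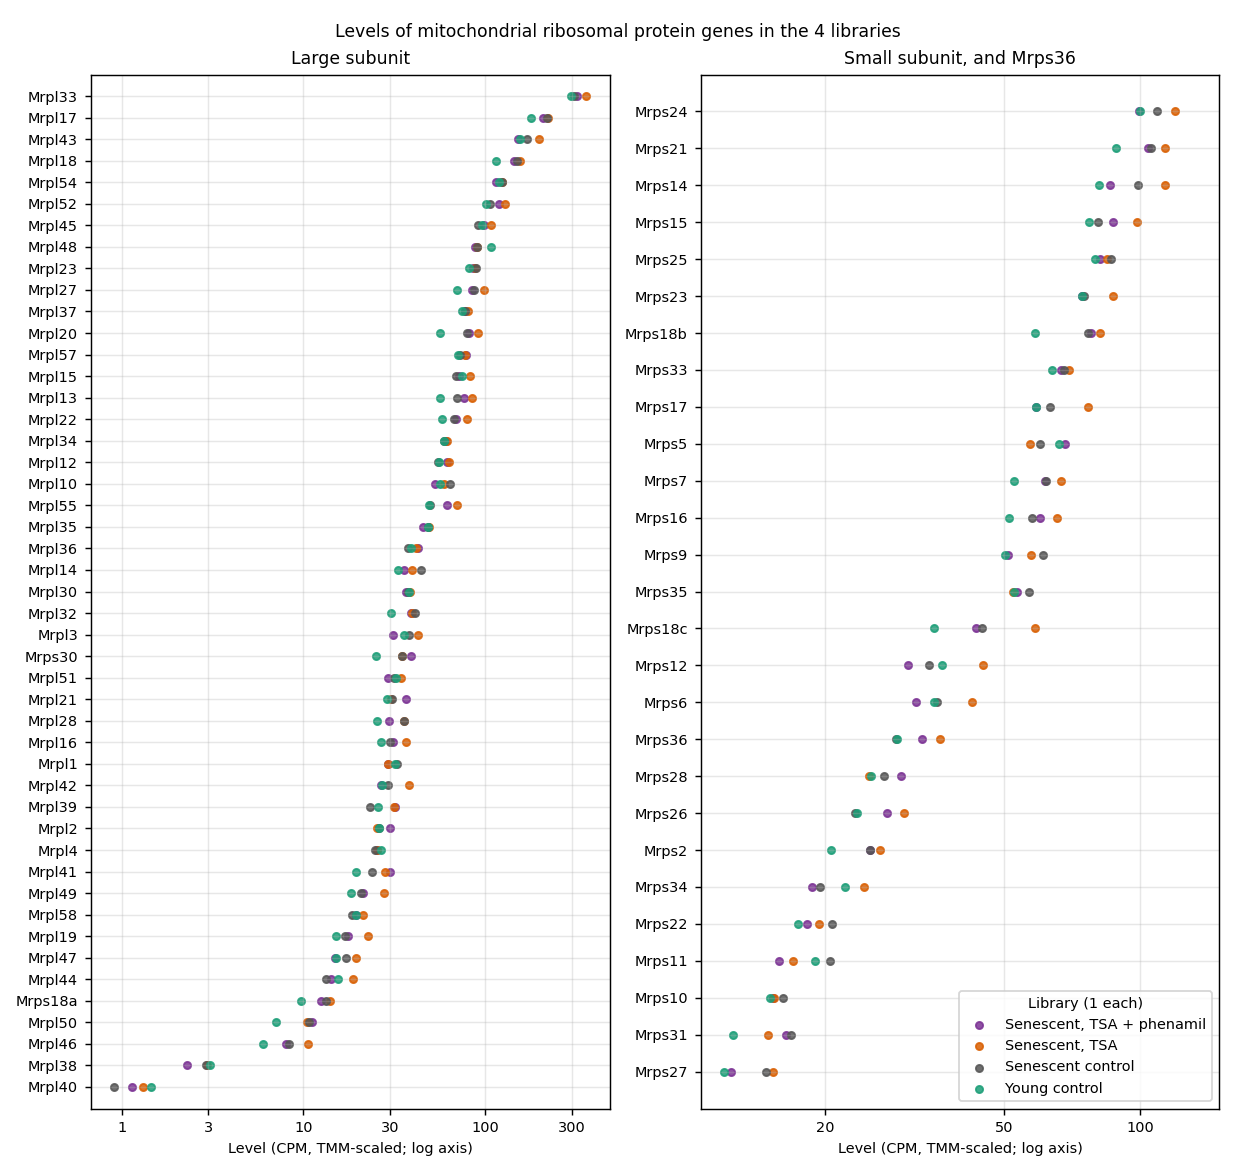
Level of each of the 74 members in the 4 libraries, in CPM on a log axis, with large subunit members on the left and small subunit members and Mrps36 on the right. Each point is 1 library. The TSA library is the rightmost point in 47 members and the young control the leftmost in 40.

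Transcript levels differed widely between members, on the scale of 3' tag counts, which are not divided by length. The most abundant was Mrpl33, a counterpart of bacterial L33, with 322, 360, 312 and 297 CPM in the TSA + phenamil, TSA, senescent control and young control libraries. It was followed by Mrpl17, Mrpl43, Mrpl18 and Mrpl54, and these 5 members held 22.9% of all member counts. Mrpl17, at the polypeptide exit, had 210, 224, 220 and 179 CPM in the same order, with the young control apart below the others. Mrpl54, at the stalk base, varied little, with 115, 123, 124 and 119 CPM. At the other end were Mrpl40, Mrpl38 and Mrpl46, all of the central protuberance of the large subunit. Mrpl40 had 12, 13, 10 and 16 counts in the same order and Mrpl38 had 24, 29, 32 and 34, too few to compare libraries. Mrpl46 had 84, 105, 92 and 67 counts. Over the 4 libraries together the median member had 1669.5 counts, with an interquartile range of 1091.8 to 3191.8. Fewer than 500 counts were found for 4 members, Mrpl50 being the other one.

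A member was called higher or lower when the ratio of scaled counts was at least 1.2-fold either way and its 95% exact counting interval excluded 1. Of the 74 members 41 were called in at least 1 of the 4 main comparisons and 33 in none, and 51.0% of all 12228 genes were called in at least 1, a share close to that of the members. Calls depend on depth, because deeper counts give narrower intervals. The shares over all genes here and below were not matched to the members' depth. The comparisons share libraries, the senescent control entering 3 of the 4.

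The first comparison was of senescent with young cells, both given vehicle. In the senescent control 19 members were higher and 0 lower, against 11.8% of all 12228 genes higher and 11.3% lower. The median log2 ratio of members was 0.11, against 0.01 for all genes compared, and 54 of 74 members had a ratio above 1, against 6238 of 12228 genes. The summed member counts stood at 1.09 (1.08 to 1.11) times the young level.

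Among large subunit proteins with bacterial counterparts, Mrpl20, whose bacterial relative helps fold ribosomal RNA during assembly, had 81.5, 92.0, 79.5 and 56.9 CPM in the TSA + phenamil, TSA, senescent control and young control libraries. The young control lay apart below the other libraries, and the senescent control stood at 1.40 (1.26 to 1.55) times its level. Mrpl18, a relative of the bacterial protein that binds the small ribosomal RNA of the large subunit, had 145, 155, 150 and 116 CPM in the same order, with a ratio of senescent to young control of 1.298 (1.21 to 1.40). For Mrpl28 the values were 29.6, 35.9, 35.7 and 25.4 CPM, and the ratio 1.40 (1.2 to 1.64). Here the TSA + phenamil library lay nearer the young control than the other senescent libraries did. Mrpl14, a protein of the face that meets the small subunit and the docking site of the assembly factor Malsu1 in humans, had 35.8, 39.8, 44.5 and 33 CPM. Its highest level was in the senescent control, at 1.35 (1.17 to 1.55) times the young level. The other members of this class called higher were Mrpl13, Mrpl17, Mrpl27 and Mrpl32, with ratios of 1.23 to 1.35.

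Of the proteins found only in mitochondrial ribosomes, Mrps30, which despite its name sits in the large subunit, had 39.2, 34.9, 34.9 and 25.3 CPM in the TSA + phenamil, TSA, senescent control and young control libraries. The 3 senescent libraries were all above the young one, and the senescent control stood at 1.38 (1.18 to 1.62) times its level. Mrpl50 showed the largest called ratio of this comparison, 1.51 (1.12 to 2.03), on 118 counts in the senescent control and 79 in the young control. Mrpl41, reported to act in cell death as well as in the ribosome, was at 1.22 (1.02 to 1.47), and Mrpl46 at 1.39 (1.001 to 1.93). In the small subunit Mrps31 of this class was also called higher, as were Mrps2, Mrps9 and Mrps14, which have bacterial counterparts. The ratios of these genes were 1.21 to 1.34. Mrpl48, of the central protuberance, differed in the other direction by less than the threshold. It had 87.8, 90.8, 90.3 and 107.8 CPM in the library order used above, so the young control was highest, and its ratio of senescent to young control was 0.838 (0.769 to 0.912).

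The S18 family was higher in the senescent control in all 3 of its members, in a comparison where 11.8% of all genes were called higher. Mammalian mitochondria have 3 relatives of bacterial protein S18: Mrps18b and Mrps18c are parts of the small subunit, and Mrps18a is a part of the large one. Mrps18b had 78.0, 81.5, 76.7 and 58.4 CPM in the TSA + phenamil, TSA, senescent control and young control libraries, and the ratio of senescent to young control was 1.31 (1.19 to 1.46). Mrps18a had 12.5, 13.9, 13.3 and 9.71 CPM, with a ratio of 1.37 (1.06 to 1.78). In both, the senescent libraries lay close together and above the young control. Mrps18c had 43.4, 58.6, 44.7 and 35.0 CPM, and its ratio of senescent to young control was 1.28 (1.12 to 1.46). Its TSA library stood apart above the others, at 1.68 (1.47 to 1.91) times the young level.

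The promoters of this family were picked because its members were called higher in the senescent than in the young control. A link between promoter letters and levels was not tested. The promoters are shown from RefSeq on the build GRCr8, which is not the build named in the submitters' processing notes. Each runs from 150 bases before the annotated start to 30 after it, 5′ to 3′ on the gene's strand, and capitals mark exact matches on either strand to any of 5 motifs: CCGGAAG of ETS factors, CGCATGC (core of the NRF1 motif), AAGATGG of YY1, the E-box CACGTG and the GC box GGGCGG.
Mrps18a (chr9:22367351-22367530, minus strand): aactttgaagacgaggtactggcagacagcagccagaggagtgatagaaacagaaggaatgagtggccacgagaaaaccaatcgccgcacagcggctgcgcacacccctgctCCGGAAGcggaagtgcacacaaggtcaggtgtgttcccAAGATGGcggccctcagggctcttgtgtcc
Mrps18b (chr20:2842856-2843035, plus strand): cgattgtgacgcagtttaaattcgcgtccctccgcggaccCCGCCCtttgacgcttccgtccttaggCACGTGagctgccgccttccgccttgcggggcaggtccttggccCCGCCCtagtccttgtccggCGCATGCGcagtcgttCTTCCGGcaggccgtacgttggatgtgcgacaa
Mrps18c (chr14:9122877-9123056, minus strand): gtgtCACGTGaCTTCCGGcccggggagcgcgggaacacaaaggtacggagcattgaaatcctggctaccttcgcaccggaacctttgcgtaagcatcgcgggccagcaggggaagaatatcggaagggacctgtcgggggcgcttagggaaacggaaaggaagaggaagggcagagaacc
Each of the 3 windows held 1 match to the ETS letters, which read CTTCCGG where the match is on the other strand. In Mrps18b the NRF1 letters matched on both strands at overlapping positions. Mrps18a alone held the YY1 letters inside the window, just after the start.

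Promoters of 300 bases, 250 before and 50 after the start, were found by gene identifier for 60 members. The ETS letters were in 33.3% of them, against 18.8% of the 9856 promoters of genes with at least 40 counts and 9.22% of all 27457 promoters in the table. The YY1 letters were in 26.7%, against 8.52% and 7.30%, and the NRF1 core in 10%, against 6.55% and 3.54%. The E-box was in 10%, against 9.59% and 6.65%, and the GC box in 50%, against 62.4% and 34.9%. None of the 5 motifs was found in 14 of the 60 member promoters, or 23.3%, against 25% and 53.1%. The median share of G and C was 55.8% in member promoters, 61.0% in those of genes with at least 40 counts and 52.3% in all. These are matches of letters and no evidence of binding. The members without an entry were Mrpl13, Mrpl15, Mrpl16, Mrpl19, Mrpl21, Mrpl35, Mrpl38, Mrpl43, Mrps12, Mrps22, Mrps24, Mrps28, Mrps34 and Mrps35.

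The second comparison was of TSA-treated with vehicle-treated senescent cells. In the TSA library 16 members were higher and 0 lower, against 10% of all genes higher and 9.63% lower. The median log2 ratio of members was 0.11, against 0.00 for all genes compared, and 55 of 74 members had a ratio above 1, against 6133 of 12228. The summed counts stood at 1.096 (1.08 to 1.11) times the senescent control level.

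**Figure D2:**
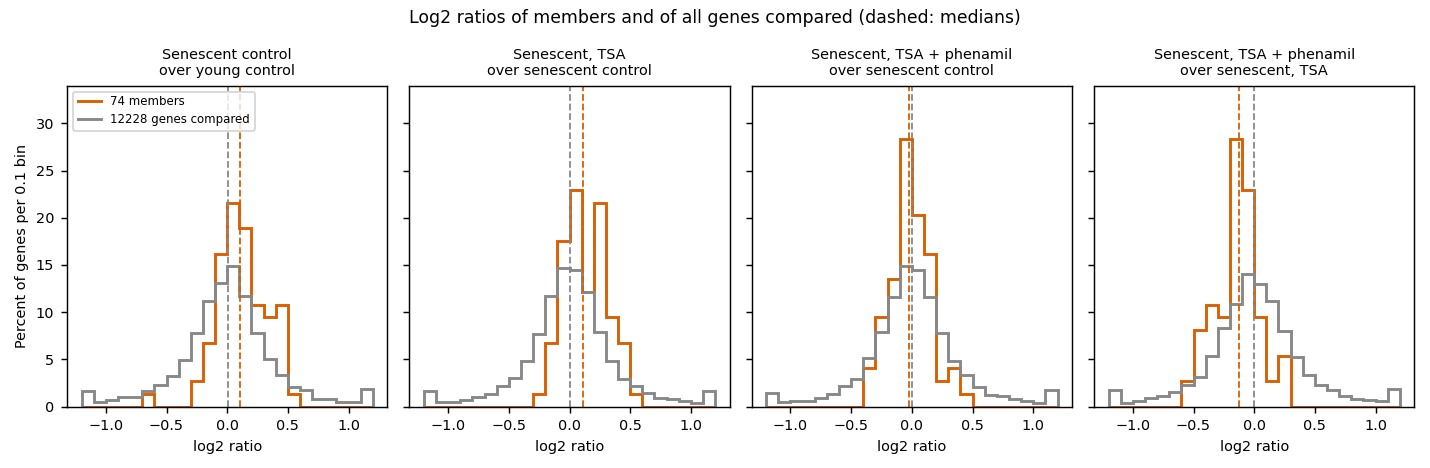
Distribution of log2 ratios in the 4 main comparisons for the 74 members (orange) and the 12228 genes compared (grey), as percent of genes per bin of 0.1; dashed lines are medians and ratios beyond the axis are placed in the end bins. The members' median lies to the right of that of all genes in the first and second panels (0.11 in both), near it in the third (-0.02) and to the left in the fourth (-0.13).

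Several of the members called higher belong to the part of the large subunit added in mitochondria. Mrpl55 had 61.6, 69.9, 50.01 and 49.0 CPM in the TSA + phenamil, TSA, senescent control and young control libraries. Both libraries with TSA lay above both without it, and the TSA library stood at 1.398 (1.248 to 1.57) times the senescent control. Mrpl39, a relative of threonyl-tRNA synthetase, followed the same order of exposed over unexposed libraries, with 31.9, 31.4, 23.2 and 25.9 CPM and a ratio of TSA to senescent control of 1.35 (1.14 to 1.602). By contrast Mrpl44, a protein with an RNase III fold whose loss of function causes cardiomyopathy in humans, had 14.2, 18.8, 13.3 and 15.6 CPM. Its TSA library alone was high, at 1.41 (1.13 to 1.76) times the senescent control. Mrpl49 had 21.4, 27.7, 20.7 and 18.3 CPM and Mrpl42 26.8, 38.0, 29.2 and 27.1 CPM, again highest with TSA alone. Their ratios of TSA to senescent control were 1.34 (1.12 to 1.602) and 1.30 (1.12 to 1.51).

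In the small subunit Mrps12, a protein of the decoding centre, had 30.6, 44.8, 34.1 and 36.3 CPM in the TSA + phenamil, TSA, senescent control and young control libraries. The TSA library stood above the other 3, at 1.31 (1.14 to 1.51) times the senescent control, and the TSA + phenamil library was the lowest. Mrps18c, given above, was at 1.31 (1.16 to 1.48) in this comparison, while Mrps18a was at 1.05 (0.822 to 1.33) and Mrps18b at 1.06 (0.964 to 1.17). Mrps34, which stabilises the small ribosomal RNA in mice and humans, was at 1.253 (1.04 to 1.51). Mrps36, named as a ribosomal protein but known as a subunit of the alpha-ketoglutarate dehydrogenase complex, was at 1.254 (1.07 to 1.46). The other members called higher were Mrpl13, Mrpl16, Mrpl19, Mrpl52, Mrps15, Mrps17 and Mrps26, with ratios of 1.204 to 1.33.

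Of the stalk, the flexible arm that recruits translation factors, Mrpl12 had 61.5, 63.1, 55.5 and 55.8 CPM in the library order used above. Mrpl12 is also known to bind the mitochondrial RNA polymerase, and its ratio of TSA to senescent control of 1.14 (1.02 to 1.27) was below the threshold. Mrpl45, which tethers the ribosome to the inner membrane, had 98.7, 108.1, 91.7 and 96.4 CPM and a ratio of 1.18 (1.08 to 1.29), likewise below it. Mrps16, mutated in a human mitochondrial disease, was at 1.14 (1.02 to 1.27), and Mrps22, another such gene, at 0.938 (0.770 to 1.14).

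Next, cells given both compounds were compared with the senescent control. The members were near even: 3 were higher and 5 lower, against 10.4% of all genes higher and 9.88% lower. The median log2 ratio of members was -0.02, that of all genes 0.00, and 33 of 74 members had a ratio above 1, against 6129 of 12228. The summed counts stood at 0.992 (0.979 to 1.005) times the senescent control level, an interval that included 1. With scaling by total counts it was 0.972 (0.959 to 0.985), which excluded 1, so this reading depends on the scaling.

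The 3 members called higher were Mrpl39 at 1.37 (1.16 to 1.62), Mrpl55 at 1.23 (1.098 to 1.38) and Mrpl41 at 1.26 (1.06 to 1.49). All of them are absent from bacterial ribosomes. Mrpl41 had 30.01, 28.3, 23.9 and 19.51 CPM in the TSA + phenamil, TSA, senescent control and young control libraries. The libraries with TSA were above both without it, and the young control was the lowest.

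All 5 members called lower have bacterial counterparts, as do 26 of 47 large and 16 of 26 small subunit members. Whether calls differed between these classes was not tested. Mrpl10, which anchors the stalk, had 53.1, 59.8, 64.0 and 56.4 CPM in the same order, and the ratio of TSA + phenamil to senescent control was 0.829 (0.741 to 0.928). Mrpl3, a protein that reaches towards the peptidyl transferase centre, had 31.1, 42.5, 38.1 and 36.1 CPM, and its ratio was 0.815 (0.703 to 0.944). For both the TSA + phenamil library was the lowest of the 4. Mrps11, of the small subunit platform that holds the messenger RNA, had 15.8, 17.0, 20.5 and 19.1 CPM and a ratio of 0.771 (0.627 to 0.946). Here both libraries with TSA lay below both without it. Mrpl14 and Mrpl28, whose levels are given above, were at 0.805 (0.702 to 0.923) and 0.831 (0.714 to 0.966).

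The last of the main comparisons was of both compounds with TSA alone, where the labels differ in phenamil only. In the TSA + phenamil library 1 member was higher and 15 were lower, against 11.7% of all genes higher and 11.4% lower. The median log2 ratio of members was -0.13, against -0.0015 for all genes compared, and 13 of 74 members had a ratio above 1, against 6088 of 12228. The summed counts stood at 0.905 (0.893 to 0.917) times the TSA level. The TSA library had the highest sum of the 4, so the direction in this pair does not show which library moved.

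Mrps12 was at 0.683 (0.590 to 0.791) times its TSA level, the lowest ratio of any member in this pair. Mrpl42 was at 0.705 (0.602 to 0.825), Mrpl3 at 0.730 (0.630 to 0.846) and Mrps18c at 0.740 (0.653 to 0.838). Among abundant members Mrpl43, a protein of the mitochondria-specific part, had 152.8, 198.6, 170.6 and 155.2 CPM in the TSA + phenamil, TSA, senescent control and young control libraries. The TSA library was the highest, and the ratio of TSA + phenamil to TSA was 0.770 (0.720 to 0.823). Mrps14, a small subunit protein with a bacterial counterpart, had 85.9, 113.5, 98.8 and 81.0 CPM and a ratio of 0.757 (0.693 to 0.827). Its untreated senescent level lay between those of the treated libraries. The other 9 members called lower were Mrpl19, Mrpl28, Mrpl44, Mrpl47, Mrpl49, Mrps6, Mrps17, Mrps24 and Mrps34, with ratios of 0.750 to 0.830. Mrpl21 alone was called higher, at 1.205 (1.03 to 1.41), with 36.8, 30.5, 30.7 and 28.9 CPM in the library order used above.

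**Figure D3:**
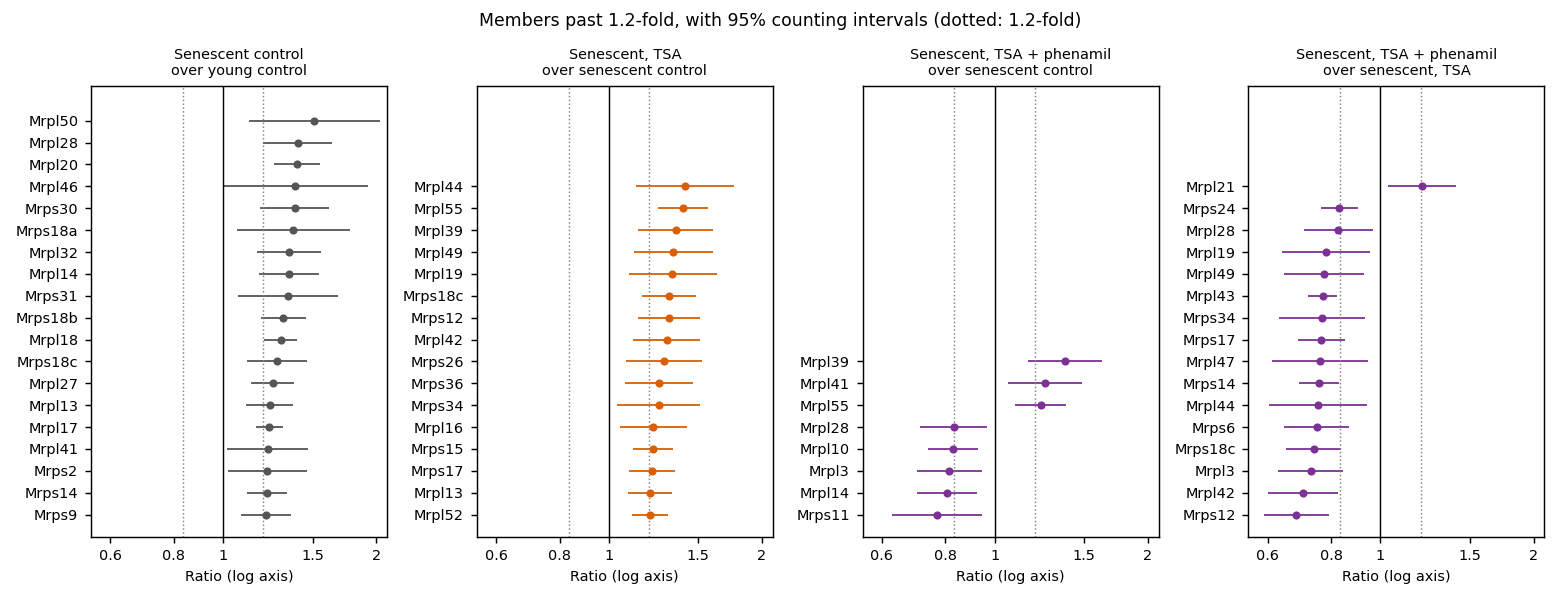
Ratio of scaled counts with 95% exact counting intervals, on a log axis, for the members called in each main comparison; dotted lines mark 1.2-fold. All called members lie to the right of 1 in the first and second panels (19 and 16 members), 3 right and 5 left in the third, and 1 right and 15 left in the fourth.

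Against the young control, TSA-treated senescent cells had 39 members higher and 0 lower, against 15.9% and 15.7% of all genes. The summed member counts stood at 1.2 (1.18 to 1.22) times the young level. Mrpl46 was at 1.76 (1.28 to 2.43), Mrps18c at 1.68 (1.47 to 1.91), Mrpl20 at 1.62 (1.46 to 1.79) and Mrpl49 at 1.52 (1.26 to 1.83). With both compounds 15 members were higher than in the young control and 1 was lower, against 10.5% and 9.99% of all genes, and the sum stood at 1.086 (1.072 to 1.101). Mrpl50 was at 1.57 (1.17 to 2.11), Mrps30 at 1.55 (1.33 to 1.81) and Mrpl41 at 1.54 (1.29 to 1.84). The member called lower was Mrpl48 at 0.814 (0.746 to 0.888).

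The pattern was shared by both subunits. The 47 members placed in the large subunit summed to 2809, 3080, 2803 and 2571 CPM in the TSA + phenamil, TSA, senescent control and young control libraries, and the 26 of the small subunit to 1315, 1478, 1359 and 1228 CPM. For the senescent over the young control, 13 of 47 large and 6 of 26 small subunit members were called higher, against 11.8% of all genes. For TSA over the senescent control these counts were 9 of 47 and 6 of 26, against 10% of all genes. For TSA plus phenamil over TSA 8 large and 7 small subunit members were called lower, against 11.4% of all genes. The median log2 ratio of the 21 mitochondria-specific large subunit members was 0.05 for the senescent over the young control and 0.22 for TSA over the senescent control. For the 26 large subunit members with bacterial counterparts the medians were 0.14 and 0.05. The difference between these classes was not tested. The summed levels of 3 members at the stalk and 4 near the peptidyl transferase centre stood at 1.05 (0.998 to 1.11) and 1.03 (0.951 to 1.11) times the young level in the senescent control, with no member called. Members at the central protuberance, 8 in all, had 3 called higher in that comparison and a median log2 ratio of -0.0017, and those at the polypeptide exit, 7 in all, 1 called higher and a median of 0.12.

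Some subunits outside the naming rule were called in the directions seen in members, and others were not called. Mrpl9 had 24.2, 30.01, 28.8 and 20.4 CPM in the TSA + phenamil, TSA, senescent control and young control libraries. Its senescent control stood at 1.41 (1.18 to 1.68) times the young level, and its ratio of TSA + phenamil to TSA was 0.806 (0.679 to 0.957). Mrpl11, of the stalk base, had 33.2, 40.6, 36.1 and 35.8 CPM, and was lower with TSA plus phenamil than with TSA at 0.816 (0.705 to 0.945). Mrpl24 had 28.8, 30.1, 26.9 and 26.3 CPM and was called in none of the main comparisons. Of the 5 subunits with other names, Aurkaip1 was higher in the senescent than in the young control, at 1.23 (1.13 to 1.35), and Chchd1 higher with TSA than in the senescent control, at 1.21 (1.11 to 1.32). Dap3, a GTP-binding small subunit protein also known from cell death, Ptcd3 and Gadd45gip1 were called in none of the main comparisons. These 5 summed to 337, 375, 341 and 303 CPM in the same library order.

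Genes that build the mitochondrial ribosome were called in both directions, as were all genes compared. Of 26 genes of ribosome assembly and ribosomal RNA modification, 2 were higher and 3 lower in the senescent than in the young control, and 2 higher and 1 lower with TSA than in the senescent control. With both compounds 1 was higher and 1 lower than in the senescent control, and 3 higher and 3 lower than with TSA alone. In the same order of comparisons, the shares of all 12228 genes called higher and lower were as follows. They were 11.8% and 11.3%, 10% and 9.63%, 10.4% and 9.88%, and 11.7% and 11.4%. Malsu1, which keeps the subunits apart until assembly is complete, was at 1.34 (1.13 to 1.58) for the senescent over the young control, and the RNA helicase gene Dhx30 at 0.644 (0.555 to 0.746). Dhx30 had 30.5, 20.7, 27.1 and 42.2 CPM in the TSA + phenamil, TSA, senescent control and young control libraries. Its TSA library was thus the lowest, where the members' sum was highest.

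Of 20 translation factors, 1 was higher and 3 lower in the senescent than in the young control, and 5 higher and 3 lower with TSA than in the senescent control. With both compounds 5 were higher and 1 lower than in the senescent control, and 3 higher and 1 lower than with TSA alone. Shares of all genes higher and lower were 11.8% and 11.3%, 10% and 9.63%, 10.4% and 9.88%, and 11.7% and 11.4%. Slirp, whose product protects mitochondrial messenger RNAs, was the 1 higher in senescent cells, at 1.288 (1.196 to 1.39). Its partner gene Lrpprc had 95.5, 91.3, 73.6 and 75.6 CPM in the library order used above, and both libraries with TSA lay above both without it. The ratio of TSA to senescent control for Lrpprc was 1.24 (1.13 to 1.37).

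Mitochondrial aminoacyl-tRNA synthetases, which charge the tRNAs used by this ribosome, had 16 genes with enough counts. Of these 2 were higher and 3 lower in the senescent than in the young control, 2 higher and 2 lower with TSA than in the senescent control, 1 higher and 4 lower with both compounds than in the senescent control, and 0 higher and 2 lower with both than with TSA. Of 24 genes of mitochondrial DNA upkeep, transcription and RNA processing the counts in the same comparisons were 4 and 5, 2 and 0, 4 and 1, and 2 and 2. Among all genes the shares were 11.8% and 11.3%, 10% and 9.63%, 10.4% and 9.88%, and 11.7% and 11.4%.

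Regulators of mitochondrial biogenesis had 11 genes with at least 40 counts. In the senescent control 0 were higher and 2 lower than in the young control, and with TSA 1 was higher and 0 lower than in the senescent control. With both compounds 2 were higher and 1 lower than in the senescent control, and 3 higher and 1 lower than with TSA. Shares of all genes higher and lower were 11.8% and 11.3%, 10% and 9.63%, 10.4% and 9.88%, and 11.7% and 11.4%. Nrf1, a transcription factor of nuclear genes for mitochondria, had 19.9, 14.8, 16.3 and 19.7 CPM in the TSA + phenamil, TSA, senescent control and young control libraries, lowest in the TSA library. Its ratio of TSA + phenamil to TSA was 1.35 (1.09 to 1.68). Myc, which raises ribosome production in many cells, had 12.1, 15.0, 9.44 and 13.1 CPM. It was higher with TSA than in the senescent control, at 1.58 (1.22 to 2.06), and lower in the senescent than in the young control, at 0.719 (0.554 to 0.931). Gabpa, the ETS factor of mitochondrial promoters, had 11.8, 11.2, 12.1 and 11.9 CPM, and Ppargc1a, a coactivator of mitochondrial biogenesis, had 0, 1, 0 and 0 counts.

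The summed level of nuclear genes for the respiratory chain had the same order of libraries as that of the members. Their 76 genes summed to 16847, 18861, 17656 and 15835 CPM in the TSA + phenamil, TSA, senescent control and young control libraries, with the TSA library highest and the young control lowest. In this group 20 were higher and 0 lower in the senescent than in the young control, 9 higher and 1 lower with TSA than in the senescent control, 3 higher and 7 lower with both compounds than in the senescent control, and 0 higher and 17 lower with both than with TSA. Among all genes the shares were 11.8% and 11.3%, 10% and 9.63%, 10.4% and 9.88%, and 11.7% and 11.4%. The same shares apply to the groups that follow. Cytosolic ribosomal protein genes, 77 in all, summed to 81302, 86750, 78140 and 72325 CPM in the same order, with the TSA + phenamil library above the senescent control. In the senescent control 9 of them were higher and 0 lower than in the young control, and with TSA 17 higher and 0 lower than in the senescent control. With both compounds 9 were higher and 1 lower than in the senescent control, and 0 higher and 1 lower than with TSA. Genes of mitochondrial protein import, 27 in all, summed to 2098, 2441, 2185 and 1922 CPM, with calls in both directions. Of the import genes 3 were higher and 2 lower in the senescent than in the young control, 4 higher and 1 lower with TSA than in the senescent control, 3 higher and 4 lower with both compounds than in the senescent control, and 0 higher and 6 lower with both than with TSA. The 18 genes of the citrate cycle and mitochondrial mass summed to 1802, 1935, 1821 and 1680 CPM, and the 13 of mitochondrial proteases and chaperones to 799.95, 866, 786 and 709.6 CPM.

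Mitochondrially encoded messenger RNAs, the templates of the mitochondrial ribosome, had another order. Their 13 genes summed to 69996, 60059, 56632 and 53676 CPM in the TSA + phenamil, TSA, senescent control and young control libraries, highest with both compounds. In the senescent control 0 were higher and 1 lower than in the young control, and with TSA 1 was higher and 2 lower than in the senescent control. With both compounds 8 of 13 were higher and 0 lower than in the senescent control, and 7 higher and 0 lower than with TSA. Among all genes the shares were 11.8% and 11.3%, 10% and 9.63%, 10.4% and 9.88%, and 11.7% and 11.4%. For both compounds over the senescent control the members' sum stood at 0.992 times and the messenger RNAs' sum at 1.24 (1.23 to 1.24) times the senescent control level. For both compounds over TSA, the members' sum was at 0.905 times and the messenger RNAs' sum at 1.17 (1.16 to 1.17) times the TSA level. In this pair the members' sum and that of the templates stood on opposite sides of 1.

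**Figure D4:**
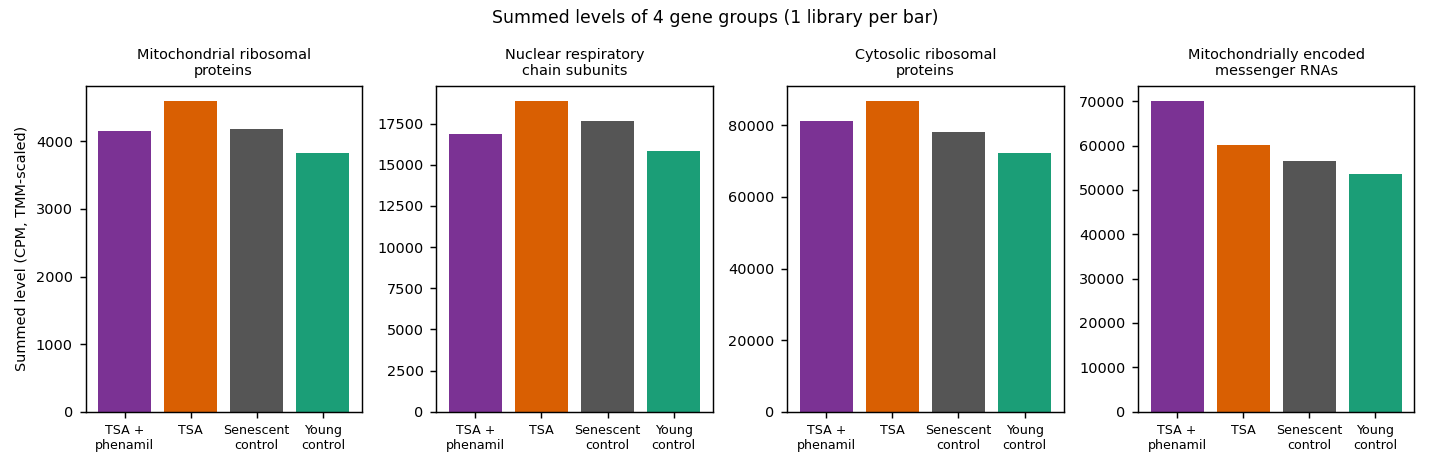
Summed scaled levels in CPM of the 74 mitochondrial ribosomal protein genes, 76 nuclear respiratory chain genes, 77 cytosolic ribosomal protein genes and 13 mitochondrially encoded messenger RNAs; each bar is 1 library and each axis starts at 0. The first 3 groups are highest in the TSA library, at 4595, 18861 and 86750 CPM, and the fourth in the TSA + phenamil library, at 69996 CPM.

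Several other values also had an extreme in the TSA library, though not all had the members' order of libraries. The TSA library had the smallest total, 9873894 counts, and the lowest summed level of stromal markers, 32506 CPM. Most of that sum came from Col1a1, with 264686 counts there, and single stromal markers went both ways. Of the 10 markers 1 was called higher, 2 lower and 7 neither with TSA than in the senescent control. Nt5e had its highest level in the TSA library, at 16.5 CPM. Krt8, the 1 epithelial marker of 6 with more than 5 counts, had 121, 199, 170 and 105 counts in the TSA + phenamil, TSA, senescent control and young control libraries, and Acp5, the 1 osteoclast marker of 4 with more than 2 counts, had 57, 89, 68 and 40. Both were highest with TSA and lowest in the young control, as the members' sum was, while Krt14, Calcr and Ocstamp were at 0 in every library. Of 4 skeletal muscle markers Acta1 alone had more than 7 counts, with 526, 352, 584 and 446 in the same order. The part of depth, of the stromal genes and of these markers in the members' levels was not tested. On the reference annotation 16 members overlap another protein-coding gene, among them Mrpl10, Mrpl14, Mrpl43, Mrpl49, Mrpl55 and Mrps12, and 24 members have a named pseudogene or like gene, among them Mrpl17, Mrpl41, Mrpl42, Mrps11, Mrps18b and Mrps18c. The use of strand in counting is not given, so counts of these members are uncertain to the extent that reads were shared.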

How the data were processed

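The authors deposited raw whole-number counts per gene for 4 libraries, per the file headers, and normalized log2 values per library. Each log2 value equalled log2 of 1 plus the count over a divisor fixed per library, to within 0.000533. Libraries were made with a 3' tag kit and read with single reads of 100 bases, per the labels' protocols. The submitters' processing notes list the build mRatBN7.2 and the tools HTSeq 2.0.2 and STAR 2.7.10b, without role. The sources used here give neither the annotation nor whether counting used strand.

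Library sizes were adjusted with edgeR 4.0.16 (TMM) in R 4.3.3. No count test could be run with 1 library per condition. Ratios carry exact conditional binomial (Clopper-Pearson) 95% intervals (scipy 1.17.1, numpy 2.4.6, pandas 2.3.3, Python 3.11.15), and log2 ratios a prior count of 0.5. A count of 0 was taken to allow 3 counts. The interval and call rule were tested on simulated counts that held counting error only. That run could not check them against variation between libraries. Figures were drawn with matplotlib 3.10.9. Tried as well were total counts, size factors of DESeq2 1.42.0, scaling without mitochondrially encoded and ribosomal protein genes, other count filters, size rules, prior counts and member sets, and the deposited log2 values.

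The members, gene lists, structural classes, motifs and call rule were chosen with earlier results of these data known. Named members are, per main comparison, up to 6 called in each direction on 100 counts or more, in order of the interval bound closest to no change, the most and least abundant members, and 16 anchors fixed by role. Further members were named after their values were seen. Where a gene had several promoters the first listed was used.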

Additional observations from a re-analysis of the deposited data

How the results depend on the processing

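The sums and medians kept their side of no change in all 4 main comparisons under every alternative run. The bounds used were 1.5 times for counts, the counting interval for sums, and for medians a margin taken from the width of the sum's interval. Of 172 alternative values 139 stayed within these bounds of the reported value and 33 did not. Most that did not were counts under another size rule. With 1.5-fold, 1 member was higher in the senescent than in the young control and 0 were called in the other 3 comparisons. With 1.1-fold, 1 was lower in the senescent than in the young control, 28 were higher with TSA than in the senescent control, 6 higher and 8 lower with both compounds than in the senescent control, and 2 higher and 27 lower with both than with TSA. With the interval alone these were 1, 29, 6 and 10, and 2 and 30. With the ratio alone 1 member was lower in each of the first and second comparisons. Scaling by total counts gave a median log2 ratio of 0.076 and a sum of 1.07 for the senescent over the young control, of -0.054 and 0.972 for both compounds over the senescent control, and of -0.16 and 0.884 for both over TSA, with 1 member lower in the first and 0 higher in the last. DESeq2 size factors gave 2 higher with both compounds than with TSA, as did scaling without mitochondrially encoded and ribosomal protein genes, which also gave 1 lower in the first. Without members overlapping another protein-coding gene, a choice made after seeing the data, the median for TSA over the senescent control was 0.093 and 3 members were lower with both compounds than in the senescent control. No paired analysis was possible because each condition had 1 library, and no replicate could be left out. Depth limits mainly Mrpl40, Mrpl38, Mrpl46 and Mrpl50, with fewer than 500 counts each.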
